A study of Ambystoma mexicanum with 9 samples.

Results

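Uninjured axolotl spinal cord (0dpi) was profiled on 3 of the 9 arrays of the series, and the levels of its transcripts are described here on their own. The measurements taken were the 10951 probe sets, of 20035 that were not controls, that the array's annotation pairs with a single gene symbol, and they stand for 8639 genes. The axolotl is a salamander that rebuilds its cord after injury. For each 0dpi array the tissue of 10 animals, 2 to 3 cm long, was pooled, so the spread between arrays is a spread between pools and not between animals. No age, sex, strain or axial level is given for these animals, no injury or injection is named in their sample labels, and the paper does not describe a 0dpi group. The other 6 arrays, cord 1 day after injury without (1dpi) or with ivermectin (1dpiT), were used only in 1 alternative choice of probe sets and are not otherwise analysed here.

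In a vertebrate cord, neurons carry and process signals, oligodendrocytes wrap their axons in myelin, and ependymoglia line the central canal. In salamanders the ependymoglia keep features of the embryonic neural tube and act as stem cells when the cord regrows. The cord lies above the notochord inside a column of cartilage, with segmented body wall muscle on both sides and skin over it. The paper describes the axolotl tissue as a cord region together with cells and tissues around it, and the levels below were read with that in mind.

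Levels are log2 signals from RMA, a method that corrects array background, gives all arrays the same distribution and condenses the probes for a transcript into a single value. A step of 1 on this scale is a doubling of signal. The 3 arrays had medians of 5.87, 5.88 and 5.89 over all probe sets that were not controls, and correlated across probe sets with an r of 0.997 to 0.998 (probe sets are not independent replicates). An array gives no read depth, and 3 arrays limit the precision. The 3 negative control probe sets, which match a transcript absent from the sample, had means of up to 3.45, and this value is called background below. The 5 cell type markers were GFAP, EPCAM, MYL2, MBP and STMN2, and all 5 lay far above it on every array.

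Markers of cell types found in the cord were clearly detected. GFAP, the filament protein of ependymoglia and astroglia, read 9.92, 9.97 and 10.03 on arrays 1, 2 and 3. MBP, a structural protein of myelin, read 11.10, 11.10 and 11.15 on its brighter probe set and averaged 9.48 on the other. STMN2, a tubulin-binding protein of growing neurons, read 9.75, 9.74 and 9.74. Transcripts of these 3 markers were thus present under the label of spinal cord, each above the upper quartile of the genes. They were among the brightest genes of the wider lists described below, which had medians of 7.30 (ependymoglia), 6.32 (myelin) and 5.73 (neurons). Whether the cord or nerve in the tissue around it made the marker transcripts is not given by bulk RNA.

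Markers of tissues that are not cord were also bright. EPCAM, an adhesion protein of epithelial cells, read 12.93, 12.87 and 12.87, and its other probe set averaged 12.74. MYL2, the regulatory light chain of slow and cardiac muscle myosin, read 10.26, 10.18 and 10.25, and its other probe set averaged 8.64. No array stood apart for any of the 5 markers, since the SD between arrays was 0.06 for GFAP and 0.04 for EPCAM. In such bulk tissue, fewer cells of a type and less RNA per cell cannot be told apart, and how much RNA each tissue gave was not tested.

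Signals of the named probe sets spread over most of the scale of the array. Their means ran from 2.79 to 14.4, with a median of 6.25, quartiles of 4.47 and 8.31, and 10% of probe sets above 9.90. At or below background lay 543 of them (4.96%), and 1040 lay above 10. Probe sets without a gene symbol were dimmer as a set, with a median of 5.41 and 836 of 9084 (9.20%) at or below background. They still took 43 of the 100 brightest places and 394 of the 1000 brightest (39.4%), against 45.3% of all probe sets, so part of the brightest transcripts cannot be named.

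**Figure D1:**
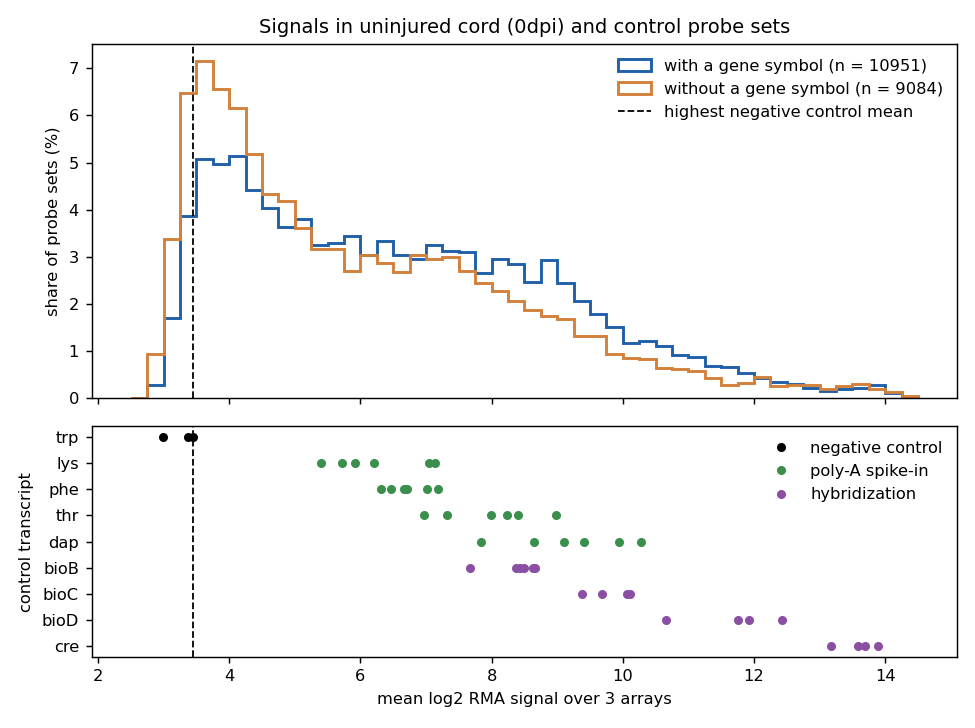
The upper panel plots the share of probe sets (%) at each mean log2 RMA signal over the 3 uninjured cord arrays, for probe sets with and without a gene symbol, with background as a dashed line. The lower panel places each control probe set on the same axis, from the negative control trp at 2.99 to 3.45 up to cre at 13.2 to 13.9.

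Control transcripts added in known order give the scale a meaning. The poly-A spike-ins, bacterial transcripts mixed into the RNA before labelling, averaged 6.24 for lys, 6.73 for phe, 7.98 for thr and 9.20 for dap, which is the order of the amounts added. Hybridization controls, added just before the arrays, averaged 8.38 for bioB, 9.81 for bioC, 11.7 for bioD and 13.6 for cre, again in the order added. Probe sets for the same spike-in lay apart, those of dap from 7.84 to 10.3. Probe sets at the 3 prime end read above those at the 5 prime end in 7 of 8 pairs of the same spike-in, and differed from them by between -0.48 and 2.11 on the log2 scale. The labelling reaction starts at the 3 prime end of a transcript.

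Probe sets for the same axolotl gene differed as well, which limits what an order of genes can mean. Of 1740 genes with more than 1 probe set, the brightest and dimmest probe set differed by a median of 1.93 (quartiles 0.89 and 3.21), by over 3 in 507 genes (29.1%) and by under 0.5 in 246 (14.1%). The pooled SD between probe sets of 1 gene was 1.91, against 2.42 across all named probe sets. Below, the brightest probe set stands for each gene, and no order is read between genes closer than about 1.91. That value is a spread of single probe sets, so a larger difference between genes does not set their order either. Signals of different genes are thus a description with no test, and a percentile is the rank of a gene among the 8639.

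RPS20, RPL23 and RPL3, which are parts of the ribosome, had the widest ranges between probe sets, and for RPS20 the dimmer one lay below background. The probe sets of RPS20 averaged 14.03 and 3.15, those of RPL23 14.33 and 3.64, and those of RPL3 14.01 and 3.62. BTF3, a factor bound to newly made proteins, had 12.88 and 3.12. LGALS1, a galactose-binding lectin, had 12.37, 3.41 and 3.38, and LDHB, a subunit of lactate dehydrogenase, had 12.20 and 3.46. Other genes among the 10 widest ranges were PVALB, TIMP1, MUC2 and SLC25A3. In 12 genes the probe sets reached from background into the brightest 10%.

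EEF1A1, the factor that brings aminoacyl-tRNA to the ribosome, had both kinds of difference. On 1 of its contigs (assembled transcript sequences) the 3 prime, middle and 5 prime probe sets averaged 14.4, 13.8 and 13.8, and on the other 7.92, 6.94 and 6.39. The 3 prime probe set was the brightest on both contigs, and the step between the contigs was larger than any step along them.

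**Figure D2:**
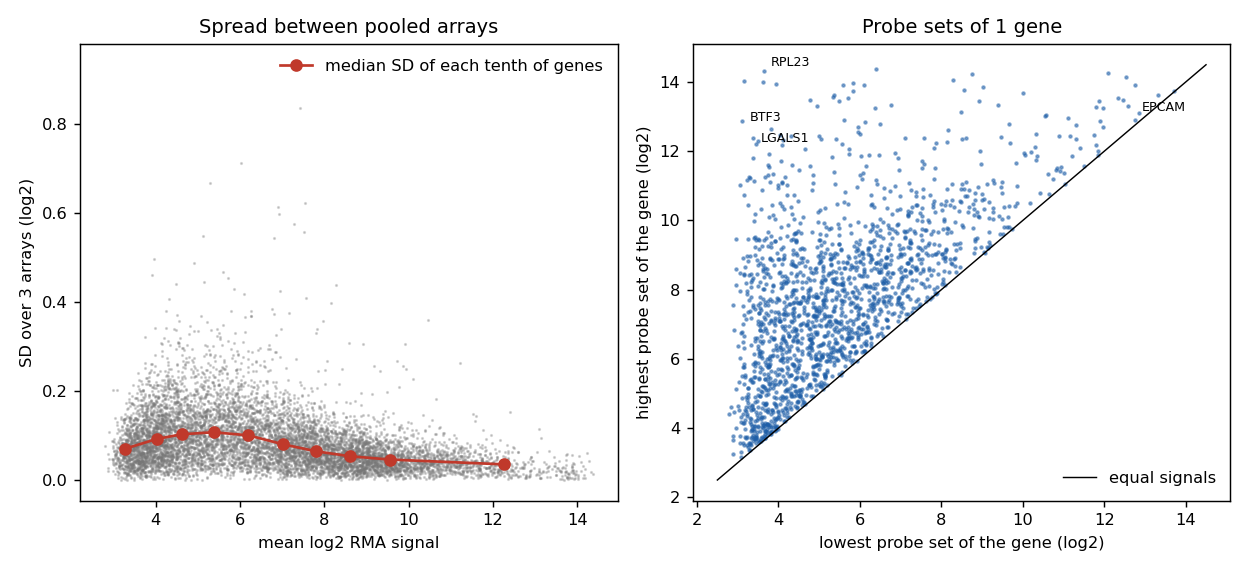
The left panel plots the SD over the 3 arrays against the mean log2 RMA signal of each gene, with the median SD of each 10% of genes in red (0.107 at its highest, 0.035 in the brightest genes). The right panel plots, for the 1740 genes with several probe sets, the brightest against the dimmest probe set (log2 RMA means), and points far above the line, such as RPL23 and BTF3, are genes whose probe sets disagree.

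The 3 pools agreed far more closely than probe sets did. The SD over the arrays had a median of 0.070 per gene. Sorted by level into sets of 10%, genes had a median SD of 0.071 in the dimmest set, 0.107 in the 4th and 0.035 in the brightest. Only 25 of the 4320 genes at or above the median level (0.579%) had an SD over 0.3. The widest of them was ATP8B1, a phospholipid flippase, with 8.25, 7.05 and 6.41 on arrays 1, 2 and 3.

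Most of the 10 widest genes ran the same way across the arrays. NCOR1, a nuclear corepressor, read 8.19, 7.54 and 6.53. RPGR, a protein of the cilium base, read 8.22, 7.43 and 6.99, and ELL2, a transcription elongation factor, read 7.61, 6.62 and 6.49. OTOF, MYO9B, AVIL, HYOU1 and ATL3 were likewise highest on array 1 and lowest on array 3. ZFP36, which speeds the decay of cytokine mRNAs and is an immediate early gene, was the exception with 7.08, 6.83 and 7.93. Among the 100 widest genes 37 were highest on array 1 and lowest on array 3 with array 2 between, against 11.2% of all 4320, and 27 were highest on array 3 and lowest on array 1 with array 2 between, against 23.8%. The SD of the gene in 100th place was 0.177.

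The brightest genes were those of protein synthesis, the actin cytoskeleton and fast skeletal muscle. The top 30 spanned 14.4 to 13.9, a range of 0.51 that is smaller than the step between probe sets of 1 gene, so their order has no meaning. Cytosolic ribosomal proteins made up 19 of the 30, led by RPL23, RPS12 and RPS2. EEF1A1 read 14.37, 14.38 and 14.40. TMSB4X, which binds free actin, read 14.16, 14.20 and 14.20, and PFN1, which loads actin for filament growth, read 13.91 on all 3 arrays.

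Muscle genes stood beside these housekeeping transcripts. MYL1, the essential light chain of fast myosin, read 14.14, 14.14 and 14.13, and its other probe set averaged 12.52. CKM, the muscle creatine kinase, read 14.03, 14.09 and 14.11. PVALB, which buffers calcium in fast fibres and in some neurons, read 13.93, 13.93 and 13.94, but its 4 probe sets averaged from 3.93 to 13.94. No pool lacked any of these transcripts.

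The brightest ACTG1 and ACTA2 signals could not be assigned to 1 gene. ACTG1, a cytoplasmic actin, averaged 14.24 on a probe set whose name carries the suffix x, and ACTA2, the actin of smooth muscle, averaged 14.05 on one with the suffix s. In Affymetrix naming these suffixes mark probes that can match several transcripts. Of the 100 brightest genes 22 were read on a probe set with the suffix s and 1 with x. Among the 10951 named probe sets 186 carry s and 5 carry x. PFN1, RPS3 and RPL13 were also read on probe sets with the suffix s, as was the brighter probe set of EPCAM. Other ACTG1 probe sets averaged 13.89 and 13.68 with the suffix s, and 9.75 and 8.75 with neither suffix. Other probe sets of ACTA2 averaged 12.40 and 8.28, with neither suffix. The probe sets of ACTC1, the actin of heart and developing skeletal muscle, averaged 13.98, 12.83 and 5.83, also with neither suffix. The rest of the top 30 were FTH1, the heavy chain of the iron store ferritin (13.93, suffix s), and HSPA8, the standing heat shock chaperone (13.91).

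**Figure D3:**
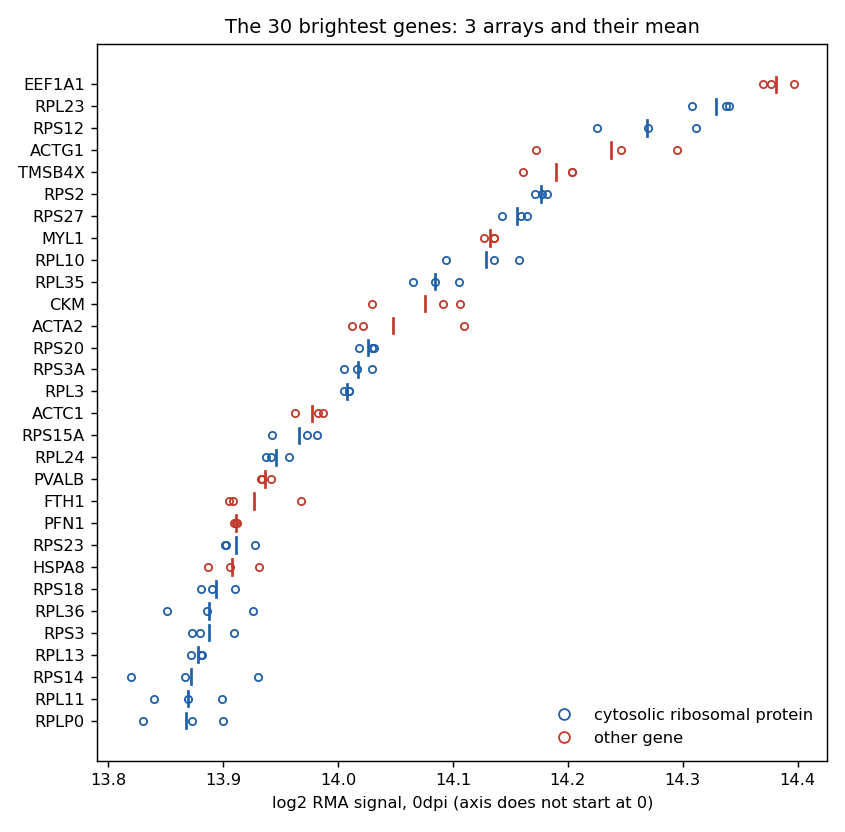
Each row is 1 of the 30 brightest genes in uninjured cord, with its log2 RMA signal on the 3 arrays as circles and the mean as a bar, ribosomal proteins in blue and others in red. The axis does not start at 0, and all 30 means lie within 0.51, from EEF1A1 at 14.38 to RPLP0 at 13.87.

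Over the 100 brightest genes, down to a mean of 12.9, the same classes filled most places. Ribosomal proteins took 47, translation factors 6, skeletal muscle 5 (MYL1, CKM, PVALB, TNNI2 and TNNC2), the cytoskeleton 3 (ACTG1, TMSB4X and PFN1) and chaperones 3 (HSPA8, CALR and HSP90AB1). Single places went to VIM, KRT8, ACTA2, ALDOA and COX5B, and 31 genes were in none of the lists. These 31 include ACTC1 and TPM3, which muscle also makes, so the counts by class depend on which genes the lists hold. No neuronal or myelin gene was among the 100, of 31 and 10 measured. The 100 are a small share of the 8639 genes, so nothing is read from their absence.

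Genes listed for cell types of the cord were widely spread, with a median near that of all genes. Over the neuron, ependymoglia and myelin lists, 56 genes were measured with a median of 6.16, against 6.61 over all genes, and 2 of them (VIM and MBP) were in the brightest 10%, which begins at 10.1. At or below background were 5 of the 56, against 4.26% of all genes. The same 4.26% is the share to set beside every count at or below background in the lists that follow. Each list is described by its counts alone, and no list was tested.

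Neuronal genes were spread from background to 9.74, with a median of 5.73 (n = 31 of 48 listed, median percentile 39.5). After STMN2, the brightest were NEFM, the medium neurofilament subunit, at 9.66, 9.72 and 9.53, UCHL1, a ubiquitin hydrolase abundant in neurons, at 9.03, 8.95 and 9.09, and TUBB3, the neuronal beta tubulin, at 8.14, 8.22 and 8.11. The other NEFM probe set averaged 4.43. None of the 31 genes was in the brightest 10%, and 12 lay above the median of all genes.

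The genes of the list that were not above the negative controls numbered 4. SLC5A7, the choline transporter of cholinergic neurons, read 3.44, 3.37 and 3.40, and SLC6A5, the glycine transporter of inhibitory neurons, read 3.41, 3.27 and 3.36. SYT1, the calcium sensor of synaptic vesicles, averaged 3.14, and MAP2, a protein of dendrites, averaged 2.99. Each was measured by 1 probe set, so a transcript missed by its probes cannot be told apart from one that was rare.

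Ependymoglial genes had a median of 7.30 (n = 15 of 22, median percentile 58.6). None of the 15 was at or below background on its brightest probe set, against 4.26% of all genes. VIM, an intermediate filament that connective tissue and many other cells also make, read 13.23, 13.30 and 13.26. HES1, a target of Notch that holds progenitors back from differentiation, averaged 8.03, and NOTCH1 itself read 7.97, 8.01 and 8.04. The lowest were SLC1A2, a glutamate transporter of astroglia, at 4.74, and FOXJ1, the regulator of motile cilia, at 4.34, 4.29 and 4.23.

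Myelin genes had a median of 6.32 (n = 10 of 21, median percentile 46.6) and a wide range. MBP led at 11.12, followed by MAL, a lipid raft protein that epithelia also make, at 9.96, and PMP22, a protein of peripheral nerve myelin, at 9.53, 9.51 and 9.53. BCAS1, which marks young oligodendrocytes, averaged 7.91. ERMN averaged 4.50 and NKX6-2, an oligodendrocyte transcription factor, 3.44, the only myelin gene not above background.

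Genes of the tissues around the cord filled more of the bright end of the scale. Over 10 such lists 156 genes had a median of 8.65, 56 of them were in the brightest 10% and 3 were at or below background. Skeletal muscle held 17 of those 56, connective tissue matrix 15, epithelium 13 and cartilage 7. With the dimmest probe set per gene in place of the brightest, the median percentile was 79.0 for muscle, 72.9 for epithelium and 76.0 for matrix, against 29.4 for neurons, 41.0 for ependymoglia and 55.7 for myelin.

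Skeletal muscle had 35 of 47 genes measured, a median of 9.99 (percentile 89.2) and 17 genes in the brightest 10%. None was at or below background on its brightest probe set, against 4.26% of all genes. Some had another probe set below background, down to 3.06. TNNI2, the inhibitory subunit of fast troponin, read 13.38, 13.41 and 13.42, and TNNC2, its calcium-binding subunit, read 13.10, 13.10 and 13.11. TNNT3, the fast subunit that binds tropomyosin, averaged 12.04. For the slow counterparts the probe sets averaged 9.31 (TNNI1), 8.70 (TNNC1) and 9.36 (TNNT1), and no order is read from different probe sets. These 6 troponin genes were set side by side after their values were seen. Other pairs of fast and slow forms, also added with their values known, were mixed. The actinins ACTN3 (fast) and ACTN2 (slow) averaged 6.49 and 5.56. MYBPC2, the fast myosin-binding protein C, had probe sets at 9.04 and 6.43, against 6.998 for the brightest of slow MYBPC1. MYL1 read 4.15 above MYL3, CASQ1 6.73 above CASQ2 and MYOZ1 4.66 above MYOZ2. The lowest members of the muscle list were RYR1, the calcium release channel, at 4.65, and CASQ2, the cardiac and slow calsequestrin. CASQ2 read 3.86 to 4.14 on the 3 arrays.

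Epithelial genes had a median of 10.0 (n = 27 of 45, percentile 89.2), with 13 in the brightest 10%. None was at or below background on its brightest probe set, against 4.26% of all genes. With the mean of the probe sets of each gene the median was 7.98 for epithelium and 8.97 for muscle. KRT8 and KRT18, the keratin pair of simple epithelia, averaged 13.44 and 12.45. KRT8 read 13.41, 13.46 and 13.46. CLDN7, a tight junction protein, averaged 12.55. ITGB4, the integrin chain that anchors basal cells, and ST14, a membrane protease, were lowest at 5.57 and 5.09.

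The connective tissue matrix had a median of 10.4 (n = 28 of 30, percentile 91.7), with 15 genes in the brightest 10%. COL1A1, a chain of the main fibrillar collagen, read 12.49, 12.43 and 12.45. COL3A1, a collagen of soft tissue, read 12.53, 12.42 and 12.23, SPARC, a collagen-binding matrix protein, averaged 12.16, and LUM, which spaces collagen fibrils, averaged 12.06. PDGFRB, a receptor of mural cells and fibroblasts, read 3.97, 3.77 and 4.11, and LOX, which crosslinks collagen, averaged 3.39 and was not above background.

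Cartilage and notochord genes had a median of 10.7 (n = 13 of 22, percentile 92.9), with 7 in the brightest 10%. COL2A1, the main collagen of both tissues, read 12.25, 12.25 and 12.28. MATN4, a matrilin, read 11.73, 11.62 and 11.44, and the type IX collagen chains COL9A1 and COL9A2 averaged 11.21 and 11.04. HAPLN1, the link protein of aggrecan, averaged 4.43, and MATN1, a matrilin of mature cartilage in mammals, averaged 3.39 and was not above background. Bone genes were few and dim, with SP7, the osteoblast transcription factor, at 5.55, PHEX at 4.36 and BGLAP, osteocalcin, at 3.66.

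The red cell and endothelial lists had medians below the 6.61 of all genes, and the leukocyte list had a median above it. Of 15 leukocyte genes measured, 11 lay above the median of all genes and 3 were in the brightest 10%. Leukocyte genes had a median of 7.74 (n = 15 of 29, percentile 64.3), led by LYZ, lysozyme, at 12.27, 12.25 and 12.26, CTSS, a protease of antigen-presenting cells, at 10.70, and CYBA, a subunit of the phagocyte oxidase, at 10.31. C1QC, a complement protein of macrophages, averaged 9.91. PTPRC, the pan-leukocyte phosphatase CD45, averaged 3.95, and ITGB2, the shared leukocyte integrin chain, averaged 3.67, so 2 of the defining leukocyte markers lay near background.

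Red cell genes had a median of 5.66 (n = 10 of 25). No globin gene was among the 10, so the list does not show how much signal red cells gave. The haem enzymes UROD and ALAS2, the first enzyme of the pathway in red cells, led, UROD at 8.91 and ALAS2 at 8.74, 8.79 and 8.80. RHAG, a red cell membrane channel, averaged 8.04, and ANK1, which ties the membrane to its skeleton, 3.70. Endothelial genes had a median of 5.45 (n = 14 of 21), led by VWF, the clotting factor stored in endothelium, at 9.20, 9.24 and 9.28. The dimmest of the 3 VWF probe sets averaged 3.41, below background. The lowest endothelial gene was TIE1, a vascular receptor, at 2.98, not above background. Pigment cell genes ran from GPNMB at 9.25 to SLC45A2 at 4.05, with TYRP1, a melanin enzyme, at 7.42. Smooth muscle genes other than ACTA2 were led by MYH11, the smooth muscle myosin, at 8.60, with its dimmest probe set at 3.73.

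**Figure D4:**
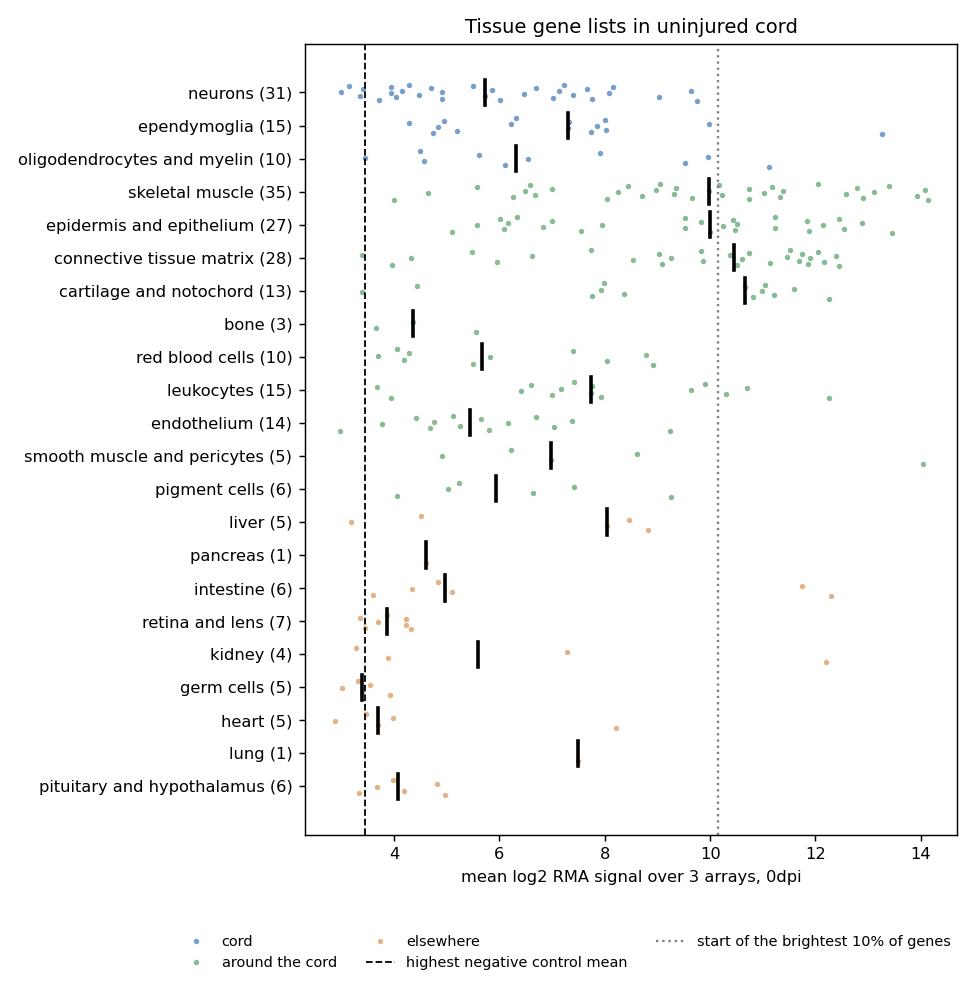
Each point is 1 gene placed at its mean log2 RMA signal over the 3 uninjured cord arrays, by tissue list (number measured in brackets), with the list median as a black bar, background dashed and the start of the brightest 10% dotted. Muscle, epithelium, matrix and cartilage medians lie at 9.99 to 10.7, and the neuron, ependymoglia and myelin medians at 5.73 to 7.30.

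Genes known from organs that lie far from the cord had mixed signals. Over 9 such lists 40 genes were measured, with a median of 4.08, and 9 of them were at or below background. The 12 genes of retina, lens and germ cells ran from 3.02 (DDX4, an RNA helicase of germ cells) to 4.32 (PDE6C, the phosphodiesterase of cones). These 12 genes, 7 of 27 listed for retina and lens and 5 of 18 listed for germ cells, thus read up to 0.88 above background. Of all genes, 1789 (20.7%) were at or below 4.32, a level that was picked after the values were seen. Some genes of other organs read higher, such as GCG, glucagon, at 4.61 and PMCH, a hypothalamic hormone precursor, at 4.81. GCG was the only 1 of 18 listed pancreas genes measured, and its other probe set averaged 3.28, below background.

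Some genes of these distant lists were bright. MUC2, a gel-forming mucin of the intestine in mammals, read 12.33, 12.23 and 12.31, with other probe sets at 3.50 to 8.16. VIL1, villin of the brush border, read 11.71, 11.79 and 11.72 on its only probe set. UMOD, uromodulin of the mammalian kidney tubule, read 12.20, 12.17 and 12.20, and its 18 probe sets averaged from 4.09 to 12.19. CUBN, cubilin of the kidney tubule, averaged 7.29, FABP6, a bile acid carrier, 5.09 and CDH17, an intestinal cadherin, 4.82. CDX2, the intestinal transcription factor, averaged 3.60, SLC12A3, the salt cotransporter of the distal tubule, 3.28, and LRP2, megalin, 3.88.

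Liver, lung and heart genes were mixed, and the 5 liver genes measured, of 22 listed, had a median of 8.04, above that of all genes. HPX, which binds haem in plasma, read 8.75, 8.83 and 8.88, and TAT and HPD, enzymes of tyrosine breakdown, averaged 8.46 and 8.04, while ITIH2, a plasma protein, averaged 3.18. MYL7, the atrial myosin light chain of mammals, read 8.16, 8.20 and 8.30. The cardiac genes TNNI3, TBX5 and GATA4 averaged 3.70, 3.46 and 2.87, at or close to background. SFTPB, a lung surfactant protein, averaged 7.49, and pituitary and hypothalamic genes ended at 4.97 (TSHB).

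Genes grouped by function separated into bright machinery and dim signalling molecules. The median was 13.7 for the 60 cytosolic ribosomal proteins (percentile 99.5, 53 in the brightest 10%), 11.8 for 27 chaperones, 11.4 for 13 glycolytic enzymes and 10.9 for 52 genes of the respiratory chain. It was 10.7 for 56 translation factors, 10.6 for 35 proteasome subunits and 10.6 for 21 cytoskeletal genes. Median signals of the mitochondrial ribosome (9.12, n = 69, from MRPL37 at 10.86 to MRPL46 at 3.52) and of cell division (8.64, n = 34) followed. Apart from chaperones, glycolysis, the cytoskeleton, cell division and immediate early genes, the functional classes were matched by a pattern in gene symbols. A pattern takes in every gene that shares the name, such as RPL7L1 (11.08) among ribosomal proteins and EEF2K (4.05) among translation factors.

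Even these classes had dim members. RPL23A averaged 5.32 and RPL14 6.71, each on 1 probe set, although both proteins are parts of every ribosome. HSPH1, a heat shock chaperone, averaged 3.18, and ALDOC, the aldolase of brain in mammals, 3.13, while ALDOA, the muscle aldolase, read 13.14, 13.15 and 13.15. PSMB1, a core subunit of the proteasome, averaged 3.95 beside PSMB7 at 12.32, but the other probe set of PSMB7 averaged 4.12. Both subunits are parts of the standard proteasome core.

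Cell division genes were present in the uninjured tissue. PCNA, the clamp of DNA polymerase, read 12.13, 12.03 and 12.11, MCM7, part of the replicative helicase, read 10.84, 10.96 and 10.89, and RRM1, which makes deoxynucleotides, averaged 10.79. CDC20, an activator of the anaphase ligase, averaged 10.38. Of the 34 genes, 31 lay above the median of all genes, and BIRC5, survivin, was lowest at 4.16. Which cells made them is not given by bulk RNA.

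The list of immediate early genes, many but not all of which respond within minutes to stimuli, had a median of 7.61 (n = 13). BTG1 averaged 11.21, JUND 10.31, KLF2 9.62 and EGR1 8.71, with EGR1 at 8.71, 8.73 and 8.69 on the 3 arrays. JUNB, JUN and FOS, named in addition, averaged 8.34, 7.41 and 7.40. NR4A1 and KLF6 were lowest at 5.92 and 5.65. Apart from ZFP36 no member had an SD over 0.3.

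Signalling genes were dim as classes. The 94 ion channels and receptor channels had a median of 4.28 (percentile 19.8), with 9 at or below background and 1 in the brightest 10% (0 without array 2). That gene was GRIK2, a kainate receptor of glutamate, at 10.10, 10.18 and 10.15. KCNK6, a potassium channel, averaged 9.90, CACNG1, a calcium channel subunit of skeletal muscle, 7.67, and CHRNE, a subunit of the acetylcholine receptor at the muscle endplate, 6.89. GRIA3, an AMPA receptor of glutamate, was the dimmest of all genes at 2.72, 2.87 and 2.77.

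The 65 G protein-coupled receptors also had a median of 4.28, and 8 of them were at or below background. FZD2, a Wnt receptor, averaged 9.44 (5.03 on its other probe set), and LPAR1, a receptor of lysophosphatidic acid, 9.12. The 8 cytokines and chemokines ran from 4.33 (IL12B) to 6.54 (TNFSF12). Zinc finger ZNF genes had a median of 5.55 (n = 67), with ZNF706 at 12.18 the brightest and 3 in the brightest 10%.

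**Figure D5:**
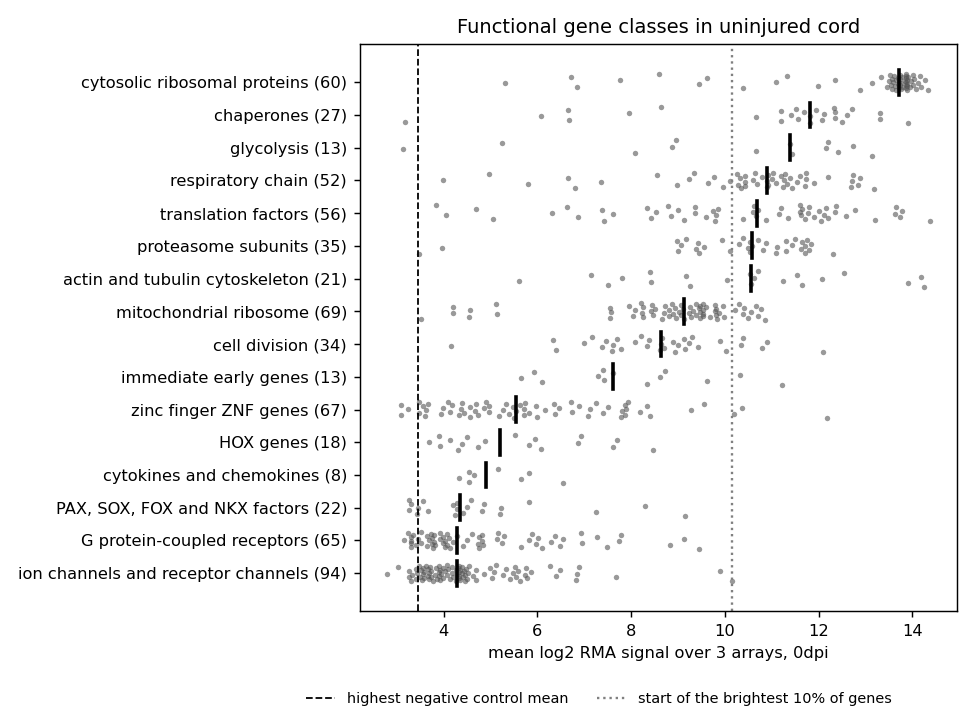
Each point is 1 gene at its mean log2 RMA signal over the 3 uninjured cord arrays, by functional class (number measured in brackets) in order of the class median (black bar), with background dashed and the start of the brightest 10% dotted. Ribosomal proteins cluster near 13.7, with dim exceptions such as RPL23A at 5.32, and both receptor classes have medians of 4.28.

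Developmental regulators lay low on the scale. HOX genes, which set position along the body axis, were above background in all 18 measured cases (median percentile 33.0). Of all genes, 4.26% were at or below background. HOXB7 was brightest at 8.47, 8.45 and 8.47. HOXA13 followed at 7.75, 7.65 and 7.67, and HOXC10 at 7.65, 7.58 and 7.58. HOXB9 averaged 6.92, HOXC8 6.86, HOXC13 6.07, HOXA3 5.94, HOXB6 5.81 and HOXB8 5.52. Neighbours in this order are closer than probe sets of 1 gene, so no order along the clusters is read from it.

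The remaining HOX genes were dimmer. HOXA4 averaged 4.88, HOXC5 4.72, HOXC11 4.49 and HOXA2 4.38. HOXD10, HOXC4, HOXD11, HOXB1 and HOXA5 lay between 4.31 and 3.68, inside the range of the measured retina, lens and germ cell genes. Among 22 PAX, SOX, FOX and NKX factors the median was 4.35 and 5 were at or below background. FOXK2 and FOXK1, which are widely expressed, averaged 9.16 and 8.29, and FOXO1, which acts below insulin signalling, averaged 7.25.

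The middle of the scale held genes of no single kind. The 10 genes nearest the median of 6.61 were SLC25A11, a mitochondrial carrier, SLMAP, FBN1, the fibrillin of elastic microfibrils, BCAR3, MBD3, a subunit of a chromatin remodelling complex, DYNLT3, a dynein light chain, PLK4, the kinase of centriole duplication, MTMR1, POLDIP2 and PDRG1. FBN1 read 6.57, 6.59 and 6.68, and its dimmest probe set averaged 3.47. PLK4 read 6.61, 6.73 and 6.48. In the sets of 10% of genes just below and just above the median, the median SD between pools was 0.100 and 0.080. These levels lay well above background.

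The 20 dimmest genes lay between 2.79 and 3.02, below the mean of the negative controls (3.27), and each had 1 probe set. They included genes of distant organs, such as GATA4 at 2.87, TBX4, a limb and lung factor, at 2.98, TBX19, a pituitary factor, at 3.02 and ABCA4, a transporter of photoreceptors, at 3.02. They also included genes used in most cells. PRKDC, the kinase of DNA end joining, read 2.85, 2.88 and 2.89, and BRWD1, HERC3, ABL2, MTMR4 and ZFYVE26 lay between 2.87 and 2.99. The others were GRIA3, ALDH1A2, which makes retinoic acid, TMEM59L, MYPN, ABHD6, TIE1, PDIA2, LRRIQ4, MAP2 and NTS, the neurotensin precursor. Signals at background thus belonged to genes of distant organs, to widely used genes and to members of the cord and surrounding lists. Among the last were MAP2 (neurons) and TIE1 (endothelium).

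The list means on each array were close for the larger tissue lists. Across the 3 arrays the mean of the neuronal list ran from 5.81 to 5.85, that of ependymoglia from 7.04 to 7.08 and that of myelin from 6.89 to 6.97. Skeletal muscle ran from 9.76 to 9.81, epithelium from 9.41 to 9.45, matrix from 9.46 to 9.51 and cartilage from 9.10 to 9.12. The means of these lists moved by no more than 0.08 between arrays. Some lists of 6 or fewer genes moved more, with ranges of 0.19 for bone, 0.12 for pigment cells, 0.10 for intestine and 0.20 for the single pancreas gene. RMA gives the arrays the same distribution, so a shift common to all genes would not be seen.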

How the data were processed

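The authors reverse transcribed 150 ng of total RNA per array, labelled it with a 3 prime in vitro transcription kit and hybridised it to a custom Affymetrix axolotl array. The deposited values are on a log2 scale, after RMA by the authors, whose processing notes also name Affymetrix Expression Console without a version. Of 20080 probe sets, 45 controls (24 poly-A spike-in, 18 hybridization and 3 negative) were set apart. Gene symbols came from the array's annotation, and all 8639 occur in the RefSeq axolotl gene table. Nothing was normalised again. Means and SDs over the 3 arrays were computed with pandas 2.3.3 and numpy 2.4.6 in Python 3.11.15, and the scripts were tested on simulated data. No test was run, since a single group is described.

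For each gene the probe set of highest 0dpi mean was used. Genes to name were taken from the 30 brightest, 10 middle and 20 dimmest genes, the 10 widest between arrays and between probe sets, the 4 highest and 2 lowest members of each list, HOX genes and the 5 markers, and not every member of these sets is printed. Members of small counts, and genes said to be so, were added outside this rule. The markers and lists were chosen with earlier results of these data known. Alternatives changed the background, the summary over arrays, the centring, the arrays used, the probe set per gene and a filter on low values.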

Additional observations from a re-analysis of the deposited data

How the results depend on the processing

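No paired analysis was possible because only 1 group is described and no test between groups is made. Taking log2 of the mean linear signal moved none of 75 values by more than the spread between arrays. Centring the arrays on their medians leaves every mean over the 3 arrays as it was by construction, so it tests nothing here. Leaving out 1 array at a time moved 1 to 3 of the 75, none of them a median of the neuron, ependymoglia, myelin, muscle, epithelium, matrix or ribosomal lists. Without replicate 2, GRIK2 left the brightest 10% and 0 channels were in it.

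The count at or below background depended on the value that marks it. It was 543 with the highest negative control mean, 243 with the mean of the negative controls, 1379 when probe sets without a symbol were included, and 2455 at the level of the brightest retina, lens or germ cell gene, an alternative chosen after the data were seen.

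The probe set that stands for a gene moved most medians. With the mean of the probe sets the medians were 6.27 for all genes, 5.32 for neurons, 6.22 for ependymoglia, 8.97 for muscle, 7.98 for epithelium, 9.13 for matrix and 13.6 for ribosomal proteins, with 2 myelin and 9 matrix genes in the brightest 10%. With the lowest probe set they were 5.86, 4.49, 5.19, 8.44, 7.84, 8.14 and 13.6 in the same order, with 1 neuronal, 11 muscle and 9 matrix genes in the brightest 10%. Muscle, epithelium and matrix then had median percentiles of 79.0, 72.9 and 76.0, against 29.4 for neurons, 41.0 for ependymoglia and 55.7 for myelin. Choosing the probe set over all 9 arrays moved 1 median, matrix at 10.37. With genes above background only, medians were 6.80 for all genes, 6.01 for neurons, 6.54 for myelin and 10.52 for matrix. Of the 100 brightest genes, 71 were shared with the mean and 67 with the lowest probe set.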

Other observations

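Of the 31 genes among the 100 brightest that no list holds, 6 are named here, picked after their values were seen and sharing no theme. UPK1B, an uroplakin of mammalian urothelium, averaged 13.11, MGP, an inhibitor of mineralisation made by cartilage and vessels, 13.27, and TPM3, a tropomyosin of slow muscle and of other cells, 13.73. ANXA2 and S100A10, partners at the cell membrane, averaged 13.01 and 13.22. YWHAQ, a 14-3-3 protein, averaged 13.49. All were within 0.05 (SD, n = 3) between arrays.

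Most named probe sets carry the letter f or r in their name, and what it stands for was not found. The 7898 with f had a median of 5.99 and the 3047 with r a median of 6.87, with 5.12% and 4.56% at or below background. In 661 genes with both, the brightest r probe set lay above the brightest f probe set in 373 (56.4%), with a median difference (r minus f) of 0.42, and in 158 the difference was over 3 in size. LDHB (f 12.20, r 3.46) and RPL23 (f 14.33, r 3.64) were brighter with f, and RPL3 (r 14.01, f 3.62) with r.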
